A study of Arabidopsis thaliana with 8 samples.

Results

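TAS4 (AT3G25795) is one of the trans-acting siRNA genes of Arabidopsis thaliana, and its small RNAs (sRNAs) were followed here window by window and length by length. The genome had been divided into 100-bp windows with sRNA counts at each length from 18 to 26 nt, and the 13 windows that overlap the gene, chr3_94175 to chr3_94187, were taken out of 1196681 windows in all. The locus was chosen by its 21-nt counts, which were higher in both hot3 alleles than in wild type (WT), so its differences between those groups are given below as a description and were not tested.

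The series holds 8 sRNA libraries from whole 18-day-old seedlings of the Col-0 background, grown at 16 h light and 8 h dark, with 2 libraries for each of 4 genotypes. HOT3 encodes the translation initiation factor eIF5B1. The genotypes were WT, the T-DNA insertion alleles hot3-2 (SALK_124251) and hot3-3 (SAIL_1147_G06), and HOT3-EYFP hot3-2, in which a HOT3-EYFP fusion driven by the HOT3 promoter was carried in the hot3-2 mutant (HOT3-EYFP below). The complemented line bears on hot3-2 only, and hot3-3 had no complemented counterpart. The labels do not say whether the 2 libraries of a genotype came from separate cultures.

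A TAS gene is transcribed into a noncoding RNA that is cut by a microRNA (miRNA), copied into double-stranded RNA by RDR6 with SGS3, and then diced by DCL4 into 21-nt siRNAs in steps set by the cut. For TAS4 the cutting miRNA is miR828. One of the products, TAS4-siR81(-), targets the mRNAs of MYB75/PAP1, MYB90/PAP2 and MYB113, R2R3-MYB transcription factors that switch on anthocyanin synthesis, and miR828 also pairs with mRNAs of the MYB family. The gene is known to respond to phosphate starvation and to be activated by PAP1 itself, which makes it a feedback loop on anthocyanin.

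The gene lies on the minus strand of chromosome 3, chr3:9417551-9418705 in TAIR10.1, as a single noncoding exon of 1155 bp. The sequences that define its siRNAs are shown because they place the counted windows on the transcript. They were read from the RefSeq genome (TAIR10.1) and are written with T. The mature miR828 is encoded at chr4:13847020-13847041 on the plus strand, and capitals mark its seed, bases 2 to 8.
miR828: tCTTGCTTaaatgagtattcca
Its best match in the TAS4 transcript is at chr3:9417809-9417830 on the minus strand, with 1 mismatch against 6 for the next best position, and the capital marks the base that does not pair by Watson-Crick rules, with a G:U wobble counted as a mismatch here and in the searches that follow.
miR828 site in TAS4: tggaatactcatttGagcaaga
A cut between the bases that face positions 10 and 11 of miR828 leaves base 888 of the transcript as the first base of the 3′ fragment, so that 76.8% of the transcript lies 5′ of the cut and 268 bases lie 3′ of it. Counting in steps of 21 nt from the cut places 12 whole siRNA positions before the end of the gene. The siRNA with known targets is the fourth of these positions on the antisense strand, chr3:9417737-9417757 on the plus strand, and capitals again mark bases 2 to 8.
TAS4-siR81(-): tGAAGGATcgaggtcgaggca
The stretch of the transcript that runs from the miR828 site into the siRNA region, chr3:9417600-9417830 on the minus strand, shows both features in place. The first capitals mark the miR828 site and the second the complement of TAS4-siR81(-).
TAS4 siRNA region: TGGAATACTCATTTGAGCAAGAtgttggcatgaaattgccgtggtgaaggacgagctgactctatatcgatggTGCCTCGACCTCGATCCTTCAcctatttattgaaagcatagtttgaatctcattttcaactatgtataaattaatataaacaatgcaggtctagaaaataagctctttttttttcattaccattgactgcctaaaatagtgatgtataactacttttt

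The 4 anthocyanin MYB genes carry graded matches to TAS4-siR81(-), all in the last exon of the gene. Capitals mark the bases of each site that do not pair by Watson-Crick rules, which may include G:U wobbles. The sites lie at chr1:21234022-21234042 (minus strand), chr1:24765072-24765092, chr1:24754285-24754305 and chr1:24758489-24758509 (all plus strand), in the order shown.
MYB75/PAP1: Agcctcgacctcgatccttca
MYB90/PAP2: AgcctcgacctcgatccttcT
MYB113: AgcctcgGcctcgatccttcT
MYB114: AgcctcgGcctcgatTcttcT
The number of mismatches was 1, 2, 3 and 4, respectively. Of the 27440 protein-coding genes searched, 4 (0.0146%) held a site with at most 3 mismatches, namely MYB75/PAP1, MYB90/PAP2, MYB113 and AT3G20690. With miR828 itself, MYB82, a MYB of trichome development, had 2 mismatches and MYB113 had 3, and 3 of 27438 genes (0.0109%) held a site with at most 3. A match of this kind is a description of sequence and no measure of cleavage.

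The libraries held 6793502 to 8210328 counts of 18 to 26 nt, with a median of 7341130.5. Counts from the 45S rDNA made up 33.7% to 52.2% of them and followed genotype, lowest in hot3-2 (33.7% and 34.0%) and highest in HOT3-EYFP (52.0% and 52.2%), with WT at 44.0% and 44.3% and hot3-3 at 40.5% and 40.8%. Levels are therefore given per 1000000 reads counted at all lengths (CPM of all counts) and, where it matters, also as CPM of the nuclear counts outside the rDNA (nuclear CPM), and fold changes come from edgeR's quasi-likelihood fit over all annotated loci with TMM scaling. How much of a level was set by the rDNA share was not tested. HOT3 itself could not be used to check the labels, since these libraries do not measure its mRNA, but sRNA counts of all lengths on HOT3 were 17 and 29 for WT, 18 and 19 for the hot3-2 pair, 28 and 24 for the hot3-3 pair, and as many as 535 and 471 for HOT3-EYFP.

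TAS4 produced 9161 counts of 21 nt and 13468 counts of all lengths over the 8 libraries. The WT libraries had 176 and 224 counts of 21 nt. The hot3-2 libraries had 1702 and 1831, and the hot3-3 libraries 2291 and 2387. The HOT3-EYFP libraries had 324 and 226. All 4 libraries of the hot3 alleles were above all 4 libraries of WT and HOT3-EYFP, with 242.8 CPM as the lowest of the former and 39.5 CPM as the highest of the latter, a separation that the choice of the locus had fixed for WT. The mean level was 28.4 ± 3.54 CPM (SD, n = 2) for WT, 244.5 ± 2.43 CPM for hot3-2, 304.5 ± 3.05 CPM for hot3-3 and 35.8 ± 5.16 CPM for HOT3-EYFP. This amounts to 8.61, 10.7 and 1.26 times the WT level for hot3-2, hot3-3 and HOT3-EYFP, respectively. The levels were 67.8, 481, 668 and 110 nuclear CPM in the same order of genotypes, or 7.10, 9.86 and 1.63 times the WT level. The fitted log2 difference from WT was 2.68 in hot3-2 and 3.19 in hot3-3, and that of HOT3-EYFP from hot3-2 was -1.99, none of which was tested, since all rest on allele libraries whose values chose the locus. In libraries from whole seedlings, more cells that make an sRNA and more of it per cell cannot be told apart.

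**Figure D1:**
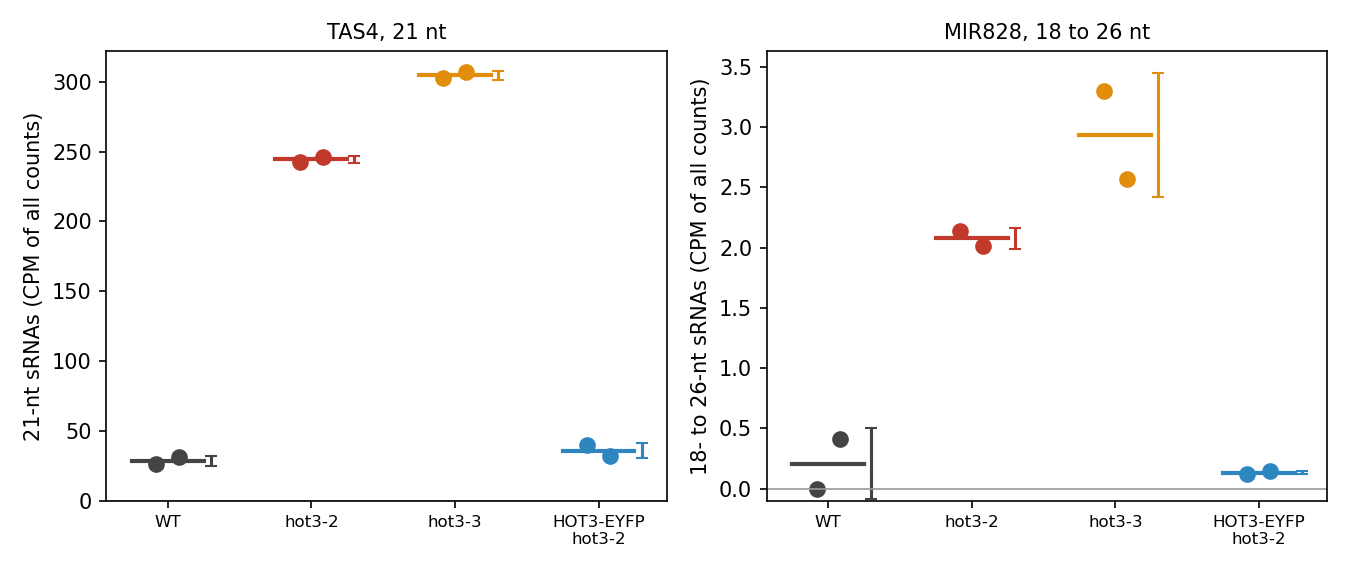
21-nt sRNAs of TAS4 (left) and sRNAs of 18 to 26 nt of MIR828 (right) in CPM of all counts. Points are libraries, horizontal bars the mean of 2 libraries and error bars the SD. The hot3-2 and hot3-3 points lie between 242.8 and 306.7 CPM at TAS4, and WT and HOT3-EYFP between 25.9 and 39.5 CPM.

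What the choice of the locus did not use is the complemented line, which was compared with WT, although the WT libraries are those that the choice had used. At the limits applied, a 2-fold difference and an adjusted p below 0.01, this comparison did not pass. The level in HOT3-EYFP was higher than in WT by 0.69 on the log2 scale (SE 0.123, edgeR's quasi-likelihood test, Benjamini-Hochberg adjusted p = 0.0161), and 26 of 3161 loci (0.823%) passed the limits in that comparison. The single libraries stood at 25.9 and 30.9 CPM in WT and at 39.5 and 32.2 CPM in HOT3-EYFP. With library sizes set to all counts instead of TMM, the same difference was 0.33 (adjusted p = 0.230), as the median of all loci moved to -0.33. The level in hot3-3 was above that in hot3-2 by 0.50 on the log2 scale, given without a test since the values of both alleles chose the locus, and 4 of 3161 loci (0.127%) passed the limits between the alleles. Relative to the median of all loci, the TAS4 differences were nearly the same with either scaling, at 2.61 for hot3-2 and 3.12 for hot3-3 against WT, 0.49 between the alleles and between 0.66 and 0.67 for HOT3-EYFP against WT.

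Nearly all of the siRNAs came from a pair of windows 3′ of the miR828 cut. The windows chr3_94177 and chr3_94176 held 99.5% of the 21-nt counts. How a read that crosses a window border was counted is not stated. Of 24 annotated miRNAs that straddle a border and had at least 1000 counts of 20 to 22 nt over both windows, 14 had more than 90% of them in the window of the leftmost base, 3 had more than 90% in the next window and 7 lay between. MIR158a, for example, had 621637 counts in the window of its leftmost base and 14 in the next, whereas MIR169e had 13 and 3023. Windows were taken to count reads by their leftmost base, which these values favour but do not settle. If so, the siRNA positions 1 to 5 from the cut on the sense strand fall in chr3_94177, positions 6 to 10 in chr3_94176 and positions 11 and 12 in chr3_94175. The antisense siRNA of position 1 would start in chr3_94178, which held no 21-nt count. TAS4-siR81(-), the siRNA printed above, starts in chr3_94177. The files give neither strand nor base position, so single siRNAs and their phase could not be counted. Of the 200 21-nt stretches that start in this pair of windows, 199 occur once in the genome and the remaining one occurs in 2 copies.

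In chr3_94177, the window next to the cut, WT had 118 and 157 counts of 21 nt, the hot3-2 pair 1065 and 1118, the hot3-3 pair 1494 and 1604, and HOT3-EYFP 232 and 163. In chr3_94176, the next window 3′, WT had 57 and 66, the hot3-2 pair 635 and 708, the hot3-3 pair 780 and 771, and HOT3-EYFP 89 and 61. Both windows showed the order of the whole gene, with the alleles at 7.75 and 10.3 times the WT level in chr3_94177 and at 10.6 and 11.5 times in chr3_94176 for hot3-2 and hot3-3, respectively. The window next to the cut held 61.1% to 67.2% of the 21-nt counts in the alleles and 67.0% to 72.1% in WT and HOT3-EYFP, ranges that touch.

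In the fit over 4808 windows, HOT3-EYFP was above WT in chr3_94177 by 0.70 on the log2 scale (SE 0.125, edgeR adjusted p = 0.00964) and in chr3_94176 by 0.46 (adjusted p = 0.121). Both were under the 2-fold limit, which 37 windows (0.77%) passed together with the p limit. The WT libraries in this comparison are again those whose values the choice of the locus had used, so its p-values are not free of that choice. Between the alleles, hot3-3 was above hot3-2 by 0.58 in chr3_94177 and by 0.28 in chr3_94176, again without a test. Whether the difference itself differed between the windows was not tested.

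The third window with 21-nt counts, chr3_94175, reaches from within the gene past its 3′ end and held 43 counts over all libraries. WT had 1 and 1 of these, the hot3-2 pair 2 and 5, the hot3-3 pair 17 and 12, and HOT3-EYFP 3 and 2. The hot3-3 libraries stood above the others. The window reached the count filter only through hot3-3, so its difference was not tested. The 10 windows from chr3_94178 to chr3_94187, which cover the miR828 site and the transcript 5′ of it, held no 21-nt count in any library. That allows at most 3 counts, or 0.365 to 0.442 CPM, in a library, and covers counting error only. They held 19 counts of other lengths. The 5 windows on either side of the gene held 4 counts of 21 nt in all, so the flanks were near 0.

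**Figure D2:**
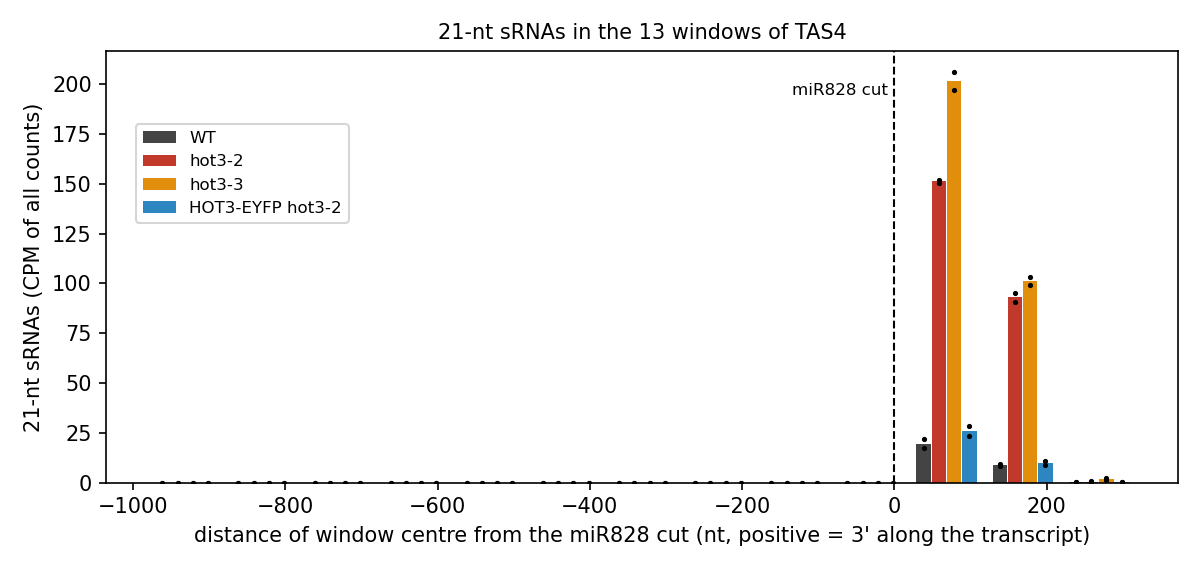
21-nt sRNAs (CPM of all counts) in the 13 windows of TAS4, placed by the distance of the window centre from the miR828 cut in nt along the transcript. Bars are means of 2 libraries and points the libraries. The pair of windows just 3′ of the cut carries 99.5% of the counts and the 10 windows at the site and 5′ of it hold none.

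At each length from 18 to 24 nt, all 4 libraries of the alleles had more TAS4 counts than each of the 4 others, and the few counts of 25 and 26 nt showed no such separation. Over the 8 libraries there were 111 counts of 18 nt, 356 of 19 nt, 1647 of 20 nt, 9161 of 21 nt, 1990 of 22 nt, 66 of 23 nt, 125 of 24 nt, 8 of 25 nt and 4 of 26 nt. The 21-nt class made up 67.1% to 72.1% of the TAS4 counts in the 8 libraries, compared with 11.6% to 13.5% of all counts in the libraries. Its mean share was 70.0% ± 3.01 (SD, n = 2) for WT, 68.2% ± 0.739 for hot3-2, 67.7% ± 0.746 for hot3-3 and 68.8% ± 1.39 for HOT3-EYFP, differences within the spread of the WT libraries. The shares of the alleles (67.1% to 68.7%) and of WT and HOT3-EYFP (67.9% to 72.1%) overlapped.

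At 22 nt, a length that DCL2 is known to make, WT had 30 and 56 counts, the hot3-2 pair 377 and 441, the hot3-3 pair 483 and 505, and HOT3-EYFP 54 and 44. The alleles were at 9.31 and 10.6 times the WT level for hot3-2 and hot3-3, and HOT3-EYFP was at 1.06 times. The fitted difference of HOT3-EYFP from WT was 0.45 on the log2 scale (edgeR adjusted p = 0.485, SE 0.247), where 28 of 4139 loci (0.676%) passed the limits. This p-value too rests on the WT libraries that the choice of the locus had used, so it is not free of that choice. The difference of hot3-3 from hot3-2, not tested, was 0.44. At 20 nt the levels were 8.43, 12.7 and 1.42 times that of WT for hot3-2, hot3-3 and HOT3-EYFP. At 24 nt, the length of DCL3 products, the mean level was 0.428 CPM in WT and at most 4.43 CPM, in hot3-3.

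The length makeup differed between the neighbouring windows in every library. In chr3_94176 the 22-nt class made up 25% to 37.9% of the counts, whereas in chr3_94177 it made up 4.18% to 6.54%. The 20-nt class went the other way, with 0.862% to 6.48% in chr3_94176 and 15.0% to 18.5% in chr3_94177. In the deepest case, hot3-3 replicate 2, the 22-nt share was 30.0% (95% Wilson interval 27.5% to 32.5%, 381 of 1272 counts) in chr3_94176 and 5.59% (4.70% to 6.63%, 123 of 2201 counts) in chr3_94177. In the shallowest, WT replicate 1, it was 25% (17.1% to 35.0%, 22 of 88 counts) and 5.23% (2.67% to 9.98%, 8 of 153 counts). These intervals cover counting error only and not the spread between libraries. The ranges of the alleles and of WT with HOT3-EYFP overlapped in both windows, with a 22-nt share of 27.3% to 30.3% in the alleles and 25% to 37.9% in the others for chr3_94176, and of 5.42% to 6.54% and 4.18% to 5.69% for chr3_94177. The length makeup thus differed by position along TAS4 in all 4 genotypes.

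**Figure D3:**
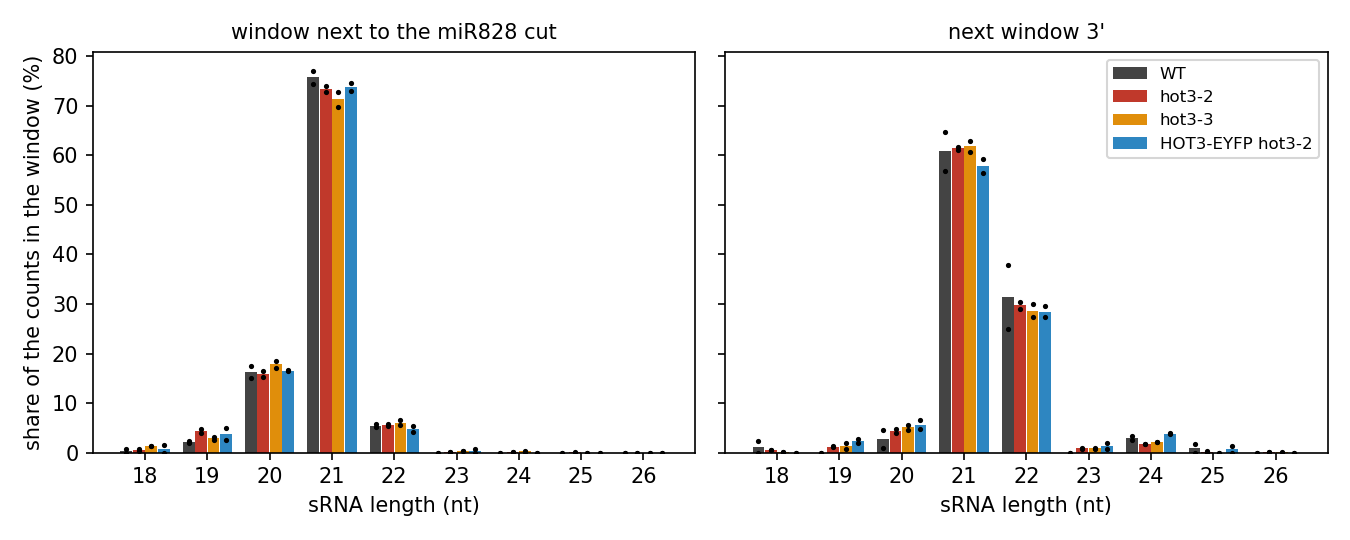
Share of the counts at each sRNA length (nt) in the window next to the miR828 cut (left) and in the next window 3′ (right), in percent of all counts in the window. Bars are means of 2 libraries and points the libraries. The 22-nt share is 25% to 37.9% in the right panel and 4.18% to 6.54% in the left, in all genotypes.

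The trigger of TAS4 was next examined. MIR828 (AT4G27765, chr4:13846971-13847161) gave few counts. Over 18 to 26 nt, WT had 0 and 3, the hot3-2 pair 15 and 15, the hot3-3 pair 25 and 20, and HOT3-EYFP 1 and 1. All 4 libraries of the alleles were above all others. At 22 nt, the length of the mature miR828 printed above, counts were 5 and 8 in hot3-2 and again 5 and 8 in hot3-3, and 0 in all 4 libraries of WT and HOT3-EYFP. The ratio of summed counts to WT over all lengths was 9.72 (95% interval 3.02 to 49.8, counting error only) in hot3-2 and 13.7 (4.40 to 69.0) in hot3-3, whereas HOT3-EYFP gave 0.614 (0.0513 to 5.36). At 21 nt, counts were 0 and 3, 10 and 6, 20 and 11, and 1 and 1 in the same order of genotypes. MIR828 reached the count filter only through the alleles, so its log2 differences from WT at 21 nt, 1.89 in hot3-2 (SE 1.003) and 2.93 in hot3-3 (SE 0.941), are given without a test.

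The targets of the siRNA gave hardly any sRNAs. At 21 nt the counts over the 8 libraries were 16 for MYB75/PAP1 (AT1G56650), 1 for MYB90/PAP2 (AT1G66390), 2 for MYB113 (AT1G66370), 1 for MYB114 (AT1G66380) and 2 for MYB82 (AT5G52600). None of these 5 loci reached the 10 counts in 2 libraries needed for the test. For MYB75/PAP1, WT had 0 and 1 of the 16 counts, the hot3-2 pair 0 and 7, the hot3-3 pair 4 and 3, and HOT3-EYFP 0 and 1, so the hot3-2 libraries spanned the WT values. Whether the mRNAs of these genes changed was not measured by these libraries.

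The other TAS genes gave the setting for TAS4. TAS1A, TAS1B, TAS1C and TAS2 are cut by miR173, and TAS3, TAS3B and TAS3C by miR390, and all share RDR6, SGS3 and DCL4 with TAS4. Against WT, 0 of the 7 passed the limits in hot3-2, where 113 of 3161 loci (3.57%) did, and 1 of the 7, TAS1C, was lower in hot3-3, where 107 loci (3.39%) passed and 62 (1.96%) were lower. DESeq2 also called 0 of the 7 in hot3-2. In edgeR, 5 of the 7 had an unadjusted p below 0.05 in hot3-2 and 6 in hot3-3. The share of all loci at that limit was not counted, so these 5 and 6 cannot be set against it. The median log2 difference of the 7 was -0.0039 in hot3-2 and -0.23 in hot3-3, beside 0.072 and 0.069 over all loci tested. TAS1C (AT2G39675) was at 32349 and 34256 counts in WT and 20706 and 21080 in hot3-3, a log2 difference of -1.04 (SE 0.028, edgeR adjusted p = 3.83e-08), close to the 2-fold limit. This call ended under 6 of 20 alternatives, among them both other library sizes (-0.80 and -0.92). TAS2 (AT2G39681) was higher in hot3-2 by 0.88 on the log2 scale (SE 0.028, edgeR adjusted p = 6.20e-08). In hot3-3 it was higher by 0.77 (SE 0.028, edgeR adjusted p = 1.98e-07). Both were under the 2-fold limit. TAS2 passed in hot3-2 under 5 of 20 alternatives, among them library sizes from all counts (1.30) and from nuclear counts (1.02), and in hot3-3 under 1. TAS3B (AT5G49615) was higher by 1.01 in hot3-2 (SE 0.276, edgeR adjusted p = 0.0537) and by 0.80 in hot3-3 (edgeR adjusted p = 0.112), neither a call. Between HOT3-EYFP and WT, 0 of the 7 passed, where 26 of 3161 loci (0.823%) did. The median log2 difference of the 7 from WT was -0.50 in HOT3-EYFP, beside 0.028 over all loci tested. Against hot3-2, HOT3-EYFP was lower for 2 of the 7, TAS2 (-1.11 on the log2 scale) and TAS3B (-1.50), where 196 of all loci (6.2%) passed and 52 (1.65%) were lower. That split depended on the scaling, with 144 loci higher and 52 lower by TMM against 40 higher and 206 lower with library sizes from all counts.

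Per kilobase of gene, 21-nt sRNAs of TAS4 ranked low among the 8 TAS genes. The level was 24.6 CPM per kb in WT (SD 3.06), above TAS3B (11.9) and below TAS3C (28.6, SD 0.697). The WT libraries of TAS4 (22.4 and 26.8) and TAS3C (29.1 and 28.1) did not overlap, a gap that was not tested. In hot3-2 and hot3-3 it was 212 and 264 CPM per kb and ranked sixth, above TAS3C at 44.4 and 34.2. In HOT3-EYFP it was 31.0 CPM per kb and again sixth, above TAS3C at 12.1, a gene that stood at 28.6 in WT. The most abundant TAS gene, TAS1C in WT and HOT3-EYFP and TAS1A in the alleles, lay between 2467 and 6015 CPM per kb.

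At 21 nt, the loci of the triggers of the other TAS genes moved in both directions. These values count all sRNAs of that length from a locus and not the mature miRNA alone. MIR173 (AT3G23125) had 3302 and 3577 counts of 21 nt for WT, 12637 and 13052 for the hot3-2 pair, 10452 and 10579 for the hot3-3 pair, and 3932 and 3466 for HOT3-EYFP. At 21 nt it was higher than in WT by 1.44 on the log2 scale in hot3-2 (SE 0.039, edgeR adjusted p = 3.14e-08). In hot3-3 it was higher by 1.25 (adjusted p = 7.23e-08). Of all loci, 1.14% and 1.42% were called higher in these alleles, and each call held under all 19 alternatives. The rise was smaller among 22-nt counts of MIR173, under the 2-fold limit in both alleles. There, the fitted log2 difference was 0.21 for hot3-2 (SE 0.083, edgeR adjusted p = 0.150) and 0.42 for hot3-3 (adjusted p = 0.00729). Counts of that length were 1036 and 1047 (WT), 1779 and 1846 (hot3-2), 1853 and 1909 (hot3-3), and 708 and 578 (HOT3-EYFP). MIR390B (AT5G58465) was lower in hot3-3 by the fit, at -1.34 (SE 0.242, edgeR adjusted p = 0.00921), a call that ended under 11 of 19 alternatives. In hot3-2 it was at -1.09 by edgeR (adjusted p = 0.0218), not a call, and passed under 3 alternatives, DESeq2 among them, while MIR390A did not pass in either allele. MIR390A and MIR390B encode near-identical miRNAs, so reads could have been split between them. Of 10 genes for proteins of the siRNA and miRNA pathways, 2 (AGO1, the main slicer, and DCL1, which makes miRNAs) had enough sRNA counts to be tested, and neither passed in either allele by edgeR or DESeq2. In edgeR, 1 of them had an unadjusted p below 0.05 in hot3-2 and 0 in hot3-3, with the share of all loci at that limit again not counted. The values for these pathway genes are sRNAs from the loci and not the level of their mRNAs.

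By the profile over the 8 libraries, 5 loci were most like TAS4 among 2681 with a mean of at least 1 CPM. They were AT3G06436 (r = 0.995), MIR845a (0.990), the pseudogene AT1G38185 (0.989), MIR859 (0.988) and the lncRNA AT3G01845 (0.987), where r is Pearson's correlation of log2(CPM + 1) at 21 nt, given as a description with the same libraries and depths behind every point. AT3G06436 and AT3G01845 lie close together on chromosome 3 (chr3:1970340-1970996 and chr3:1967314-1968086), so they may not be independent of each other, which was not tested. The size of the difference was not alike. MIR845a, whose miRNA targets the primer binding sites of retrotransposons, had 253 and 228 counts for WT against 24712 and 29299 for the hot3-2 pair, 21536 and 23254 for the hot3-3 pair, and 369 and 208 for HOT3-EYFP. Its level was 109 and 84.9 times that of WT in hot3-2 and hot3-3, while AT3G06436 was at 3.79 and 3.74 times, below the 8.61 and 10.7 times of TAS4. In HOT3-EYFP the 5 loci were at 0.606 to 1.31 times the WT level and TAS4 at 1.26 times. Both ends of that range rest on few counts. MIR859 (0.606) had 1 and 5 counts in WT and 3 and 1 in HOT3-EYFP. AT1G38185 (1.31) had 3 and 4 in WT and 6 and 4 in HOT3-EYFP. Both loci were below 1 CPM in WT (0.419 and 0.497) and in HOT3-EYFP (0.254 and 0.650), so they reached the mean of 1 CPM only through the alleles.

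**Figure D4:**
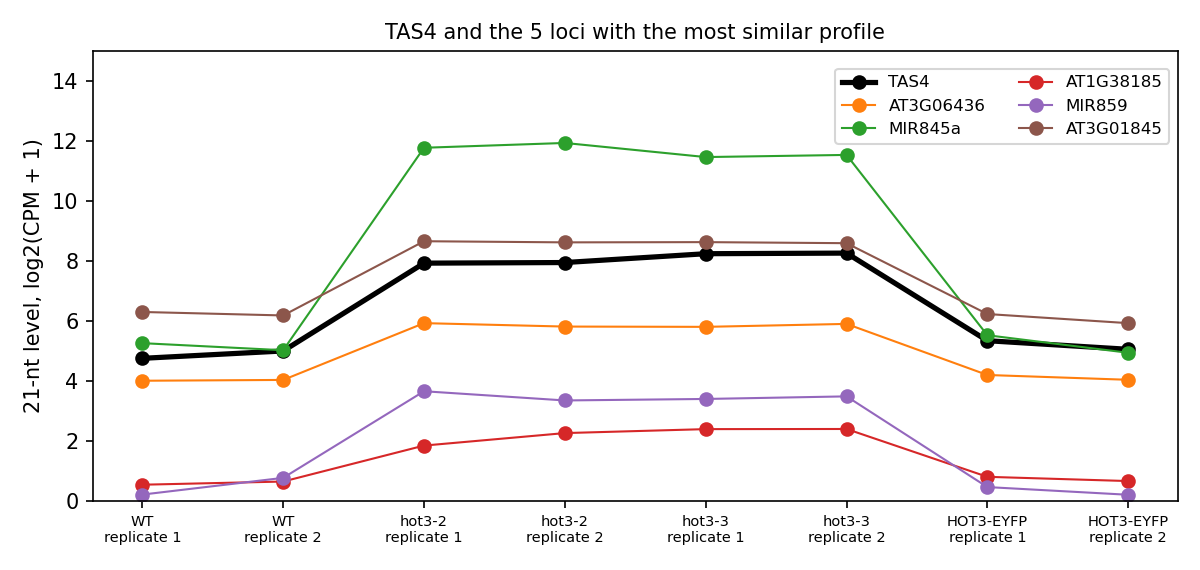
21-nt level, log2(CPM + 1), of TAS4 and of the 5 loci whose profile over the 8 libraries is most like it. Lines join the values of 1 locus and carry no order. All 6 loci are high in the 4 libraries of the hot3 alleles and low in WT and HOT3-EYFP, with the widest step for MIR845a.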

How the data were processed

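The authors sequenced sRNAs of 18 to 40 nt cut from gels and deposited, for each library, whole-number counts of reads in 100-bp windows at each length from 18 to 26 nt, without strand and not normalized. The submitters' processing notes name cutadapt 4.2, Bowtie, featureCounts 2.0.3 and DESeq2 1.34.0. For the window counts, how reads with several genomic matches were placed is not given in the sources used here. Windows matched TAIR10.1 in number on each nuclear chromosome.

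Windows overlapping an annotated gene were summed per locus. Loci that reached 10 counts in 2 or more libraries were fitted with edgeR 4.0.16 (R 4.3.3, TMM, quasi-likelihood test, all 4 genotypes in 1 fit, no covariate), with p-values adjusted by Benjamini-Hochberg over all loci and a call at 2-fold and adjusted p below 0.01. The fit was tested on simulated data. Alternatives were other library sizes, DESeq2 1.42.0, other filters, lengths and window rules, a replicate block, fits of 2 genotypes, and leaving out each library. The TAS4 windows and gene lists were chosen with earlier results of these data known. Named were TAS4, MIR828, 5 MYB genes, the other TAS genes and their miRNAs, pathway loci that could be tested, and the 5 loci most like TAS4. The lists of phosphate-responsive miRNAs and of MIR858A and MIR858B were added after the data had been seen. With 2 libraries per genotype not said to be separate cultures, p-values measure the spread between these libraries, which may be technical.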

Additional observations from a re-analysis of the deposited data

How the results depend on the processing

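The TAS4 differences at 21 nt kept their direction under every alternative run. For the contrasts with the alleles this is no support, since the choice of the locus had used the same libraries. Their size moved by at least the pooled SD between replicates (0.138 on the log2 scale) under some alternatives. These were 6 of 21 for hot3-2 and 4 for hot3-3 against WT, and 5 for HOT3-EYFP against hot3-2. Library sizes from all counts gave log2 differences of 3.10 for hot3-2 and 3.42 for hot3-3 against WT and -2.77 for HOT3-EYFP against hot3-2, and library sizes from nuclear counts gave 2.83 for hot3-2. Without a filter they were 2.85, 3.33 and -2.25, over 18 to 26 nt 2.86, 3.34 and -2.25, and without chr3_94177 hot3-2 gave 2.97 and HOT3-EYFP against hot3-2 -2.43. Leaving out 1 library gave 2.54 to 2.81 for hot3-2 and 3.05 to 3.31 for hot3-3 against WT, -2.11 to -1.84 for HOT3-EYFP against hot3-2, 0.56 to 0.83 for HOT3-EYFP against WT and 0.50 to 0.57 for hot3-3 against hot3-2. HOT3-EYFP against WT passed only with an adjusted p limit of 0.05 and no fold limit (0.69). Over its alternatives the adjusted p ran from 0.00178 to 0.278. The same-numbered libraries did not deviate together (correlations of -0.049 to 0.030), and the replicate block gave 0.70 for HOT3-EYFP against WT, which did not pass, and 0.50 for hot3-3 against hot3-2.

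MIR828 at 21 nt rested on few counts. Its difference of HOT3-EYFP from WT was -0.31 and turned to 0.24 when only windows wholly inside the gene were used and to 3.57 without WT replicate 2, the only WT library with MIR828 counts, with a range of -1.23 to 3.57 when 1 library was left out. Over the same omissions it ran from 0.96 to 5.76 for hot3-2 and from 2.00 to 6.79 for hot3-3 against WT, and from -2.55 to -1.80 for HOT3-EYFP against hot3-2.

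The number of loci called also moved. Without a filter there were 199 for hot3-2 and 191 for hot3-3 against WT, 84 for HOT3-EYFP against WT and 36 for hot3-3 against hot3-2. With an adjusted p limit of 0.05 and no fold limit there were 317, 304, 90 and 28, and 439 for HOT3-EYFP against hot3-2. Sums over 20 to 22 nt gave 239 and 208 for the alleles against WT, 437 for HOT3-EYFP against hot3-2 and 9 for hot3-3 against hot3-2, and sums over 18 to 26 nt gave 385, 336, 664 and 17, and 75 for HOT3-EYFP against WT. For HOT3-EYFP against WT there were 15 in the fit of those genotypes alone and 17 with windows wholly inside the gene, and DESeq2 called 2 for hot3-3 against hot3-2. Leaving out 1 library gave 63 to 118 and 58 to 96 for the alleles against WT, 15 to 23 for HOT3-EYFP against WT, 109 to 169 for HOT3-EYFP against hot3-2 and 0 to 3 for hot3-3 against hot3-2. With library sizes from all counts, calls were 71.8% higher in hot3-2 against WT and 65.2% in hot3-3, compared with 31.9% and 42.1% with TMM, as the median of all loci moved to 0.49 and 0.30. For HOT3-EYFP against hot3-2 the higher share was 16.3% instead of 73.5%, with the median at -0.89. MIR828 and the MYB loci had few counts, and the causes of these shifts were not tested.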

Other observations

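Lists added after the data had been seen gave values for other miRNAs near this pathway. MIR858A (AT1G71002), whose miRNA targets MYB activators of flavonoid synthesis, had 378 and 353 counts of 21 nt for WT, 1021 and 1012 for the hot3-2 pair, 1107 and 1169 for the hot3-3 pair, and 297 and 277 for HOT3-EYFP. It was higher than in WT by 1.01 on the log2 scale in hot3-2 (SE 0.118, edgeR adjusted p = 0.000542) and by 1.27 in hot3-3 (SE 0.118, adjusted p = 0.000132), and the call ended in hot3-2 under 10 of 20 alternatives, where the difference fell just under 2-fold, and under none of 20 in hot3-3. Of all loci tested, 1.14% were called higher in hot3-2 and 1.42% in hot3-3. In HOT3-EYFP, MIR858A was lower than in hot3-2 by the same fit (-1.11, edgeR adjusted p = 0.000265), where 1.65% of loci were called lower. MIR858B did not pass in either allele, and its near-identical miRNA means that reads could have been split between the pair.

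Among 9 loci of miRNAs known to respond to phosphate, 4 had enough counts of 21 nt to be tested. MIR827 (AT3G59884) had 77 and 61 counts for WT, 25 and 34 for the hot3-2 pair, 45 and 41 for the hot3-3 pair, and 100 and 102 for HOT3-EYFP, with the alleles below the other libraries. Its log2 difference from WT was -1.69 in hot3-2 (SE 0.283, edgeR adjusted p = 0.00565), a call that ended under 8 of 20 alternatives, and -1.05 in hot3-3 (SE 0.276, adjusted p = 0.0481, not a call). In hot3-2, 113 of 3161 loci (3.57%) passed with TMM and 77 were lower. Against hot3-2, HOT3-EYFP was higher for 2 of the 4. These were MIR827 (2.49, edgeR adjusted p = 0.000436) and MIR399C (1.85, adjusted p = 0.00809). There, 144 of all loci were higher with TMM and 40 with library sizes from all counts. By edgeR, MIR399A, MIR399B and MIR399C did not pass in either allele, whereas DESeq2 called MIR399C lower than in WT in hot3-2 (-1.21, adjusted p = 0.00891) and in hot3-3 (-1.68, adjusted p = 0.000147). The hot3-2 libraries disagreed, with 70 and 171 counts of 21 nt at MIR399C and 69 and 0 at MIR399B. In WT these were 193 and 200 at MIR399C and 36 and 75 at MIR399B. How reads with several genomic matches were placed is not given, so reads could have been split between these loci.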
